A study of Mus musculus with 16 samples.

Results

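Genes that move or bind iron, copper and zinc were followed in the hippocampus of mice without APP, without APLP2 or without both. The set holds 10 genes, Fth1, Ftl1, Tfrc, Slc40a1, Cp, Mt1, Mt2, Mt3, Atp7a and Slc30a3, chosen because APP is reported to act in iron and copper balance. Every probe set that the array's annotation pairs with 1 of these symbols and no other was taken, which gave 25 of the 45101 probe sets on the array, for 9 of the 10 genes. Ftl1, the light chain of ferritin, had no such probe set: the 3 probe sets that list it also list other genes, so no value is given for it.

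A cell takes up iron bound to transferrin through the transferrin receptor (Tfrc), stores it in ferritin shells built of heavy chains (Fth1) and light chains (Ftl1), and releases it through ferroportin (Slc40a1), the exporter. Ceruloplasmin (Cp) carries copper and oxidises the released iron, and in brain a form of it anchored to the membrane is known from astrocytes. Atp7a pumps copper into the secretory pathway and out of the cell, the metallothioneins Mt1, Mt2 and Mt3 bind zinc and copper, and Slc30a3 (ZnT3) loads zinc into synaptic vesicles, for which the mossy fibres of the hippocampus are known. APP and APLP2 are related membrane proteins, and APP has a copper-binding region. Much of the control of Fth1, Tfrc and Slc40a1 by iron acts on translation and on the stability of the RNA, and arrays of total RNA see the second but not the first.

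RNA came from the hippocampus of male mice aged 2 months, of a strain the labels spell C56/BL6, on 16 Affymetrix arrays with 4 in each of 4 groups. The groups are wild type (WT), APP-/- (APPKO), APLP2-/- (APLP2KO) and N-dCKO, whose genotype label reads APP-/-; APLP2-/- and which the series title calls a neuronal double conditional knockout. The promoter that drove the deletion and the cells that carried it are not given in the sources used here, nor whether the single knockouts were constitutive. No treatment is named for any group, and nothing in the labels says that the arrays of a group came from separate animals, so every p-value reflects only how these samples vary, and that variation may be technical. Since whole tissue was measured, fewer cells of a type and less RNA per cell cannot be told apart.

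App kept 13.6% of its WT signal in APPKO and 11.8% in N-dCKO, and Aplp2 kept 19.4% in APLP2KO and 16.7% in N-dCKO, as the labels have it. The median signal of an array ranged from 79.7 to 101.6, on a scale where the trimmed mean of every array was 500. Marker lists of other cell types differed between the groups. Against WT, 11 of 11 tested choroid plexus genes (14 listed) were lower in N-dCKO with a median log2 fold change of -2.81, 5 of 12 tested microglia genes were called lower, 1 of 10 tested oligodendrocyte genes was called lower, and 0 of 11 astrocyte, 0 of 10 endothelial and 0 of 8 general neuron genes were called. Of 7 CA pyramidal neuron genes 1 was called lower in N-dCKO (Spink8, log2 fold change -1.10, limma adjusted p = 0.00368), and 0 of 8 ependyma genes were called, with 8 of 8 negative and a median of -0.42. In APPKO and APLP2KO no gene of these lists was called against WT, but several lists lay mostly on the negative side there too. All 10 oligodendrocyte genes were negative in APPKO, with a median of -0.50 beside -0.51 in N-dCKO, and all 12 microglia genes were negative in APPKO (median -0.15), APLP2KO (-0.23) and N-dCKO (-0.40). The choroid plexus median was -0.28 in APPKO and -0.53 in APLP2KO. The neuron list read 13.04 to 13.22 on the WT arrays as a mean log2 signal, so the RNA carries the defining genes of neurons. Gapdh signal from the 3' end over that from the 5' end rises as RNA degrades. It was 0.797 to 0.834 on the N-dCKO arrays and 0.752 to 0.786 on the WT arrays. On the APPKO arrays it was 0.745 to 0.806 and on the APLP2KO arrays 0.741 to 0.817, which overlap both.

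None of the 9 measured genes was called different in any comparison. Signals were tested with limma on log2(signal + 9) over 11664 genes, 1 probe set per gene, and a gene was called at a Benjamini-Hochberg adjusted p below 0.05. Members called numbered 0 of 9 in APPKO against WT, where 0.00857% of all genes were called, 0 of 9 in APLP2KO against WT, where 0.129% were, and 0 of 9 in N-dCKO against WT, where 0.943% were. The count was also 0 of 9 in N-dCKO against APPKO (0.352% of all genes called), in N-dCKO against APLP2KO (0.0257%), in the interaction of both losses (0%) and in the moderated F test of any difference among the 4 groups (0.566%). These shares move with single arrays. Of 11664 genes, 16 were called in APPKO against WT without APPKO array 2, in place of 1. Without N-dCKO array 3 it was 35 in N-dCKO against APLP2KO in place of 3, and 11 for the interaction in place of 0, while the members called stayed at 0. With shares this low in all genes, a count of 0 among 9 lies near the background. At an unadjusted limma p below 0.05, 0, 0 and 2 of the 9 genes stood out in APPKO, APLP2KO and N-dCKO against WT, beside 5.18%, 7.44% and 11.98% of all genes.

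The median log2 fold change of the 9 genes was -0.05 in APPKO, 0.01 in APLP2KO and 0.02 in N-dCKO against WT, where the medians of all genes were -0.00381, -0.00807 and -0.00407. Of the 9, 6 had a negative value in APPKO, 4 in APLP2KO and 4 in N-dCKO, beside 51.7%, 53.3% and 51.3% of all genes. The most negative values belonged to Cp in APPKO (-0.17), Tfrc in APLP2KO (-0.16) and Cp in N-dCKO (-0.52), and the most positive to Mt1 in APPKO (0.04), Slc40a1 in APLP2KO (0.21) and Mt2 in N-dCKO (0.13). The 3 comparisons share the WT arrays.

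**Figure D1:**
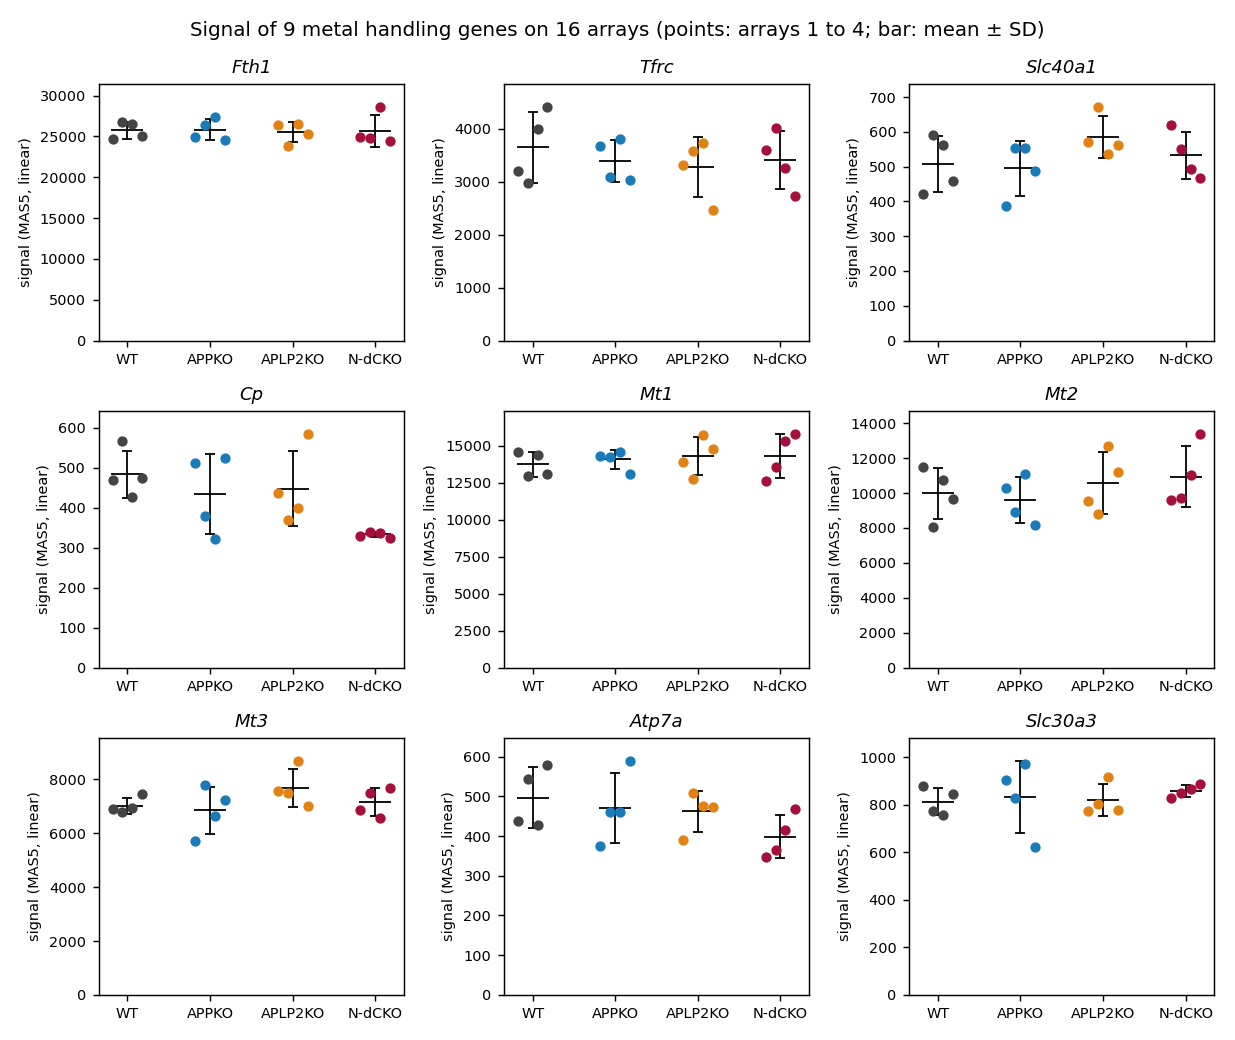
Signal of the 9 measured genes on each of the 16 arrays, on a linear axis from 0, with 4 points per genotype group and the group mean ± SD as bars. The Cp points of N-dCKO lie between 325 and 339, below all 4 WT points (426 to 566), and for the other 8 genes the points of every knockout group overlap those of WT.

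Fth1, the iron-oxidising ferritin chain, gave one of the highest signals on every array. It read 24677, 26734, 26509.8 and 25093 on the WT arrays, 24969, 26398, 27398 and 24537 on the APPKO arrays, 26448, 23801, 26534 and 25322 on the APLP2KO arrays and 24902, 24855, 28594 and 24409 on the N-dCKO arrays. The groups overlap throughout, and the single high value is N-dCKO array 3. Means were 25753 ± 1021 in WT (SD, n = 4), 25826 ± 1316 in APPKO, 25526 ± 1276 in APLP2KO and 25690.2 ± 1949 in N-dCKO, and no neighbours in level differ beyond their spread. The log2 fold change against WT was 0.00 in APPKO (95% confidence interval -0.12 to 0.12), -0.01 in APLP2KO (-0.13 to 0.11) and -0.01 in N-dCKO (-0.12 to 0.11). These are the narrowest intervals of the set, but Fth1 ranked between 11 and 32 among all probe sets of an array and stood at 70.4% to 84.6% of the highest signal on it, near the top of the scale. Whether a signal of this height still follows the RNA in proportion was not tested. The other Fth1 probe set, an _s_at design whose probes match more than 1 transcript, read 18986 ± 977 in WT and 18284 ± 1495 in N-dCKO, with a log2 fold change of -0.06.

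Tfrc, the receptor for iron-loaded transferrin, varied more between arrays than between groups. Its signal was 3210.2, 2983, 3986 and 4410.5 in WT, 3673, 3083, 3803 and 3031 in APPKO, 3308, 3587, 3727 and 2471 in APLP2KO and 3605, 4021, 3256 and 2738 in N-dCKO. Each knockout group overlaps the WT range, and the coefficient of variation within WT was 18.3%. The group means were highest in WT (3647 ± 666) and lowest in APLP2KO (3274 ± 562), with N-dCKO and APPKO between them. The log2 fold change against WT was -0.09 in APPKO, -0.16 in APLP2KO (95% confidence interval -0.44 to 0.13) and -0.10 in N-dCKO (-0.38 to 0.19), with limma adjusted p of 0.9997, 0.852 and 0.853. Tfrc has 5 further probe sets, 3 of them control sequences of the array. All 5 lay below the signal filter, with means of 9.78 to 65.8 in any group.

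Slc40a1 encodes ferroportin, the iron exporter. Its brighter probe set read 421, 590.1, 561 and 459 in WT, 387, 554, 553 and 486 in APPKO, 571, 672, 535 and 563 in APLP2KO and 619, 551, 494 and 468 in N-dCKO. In APLP2KO 3 arrays lie within the WT range and array 2 lies above it. Their mean of 585 ± 59.7 against 508 ± 80.7 in WT gave a log2 fold change of 0.21 ± 0.13 (SE; 95% confidence interval -0.06 to 0.48, limma adjusted p = 0.774). The dimmer probe set put all 4 APLP2KO arrays (189, 207, 199 and 185) above all 4 WT arrays (141, 168, 183 and 139), a log2 difference of 0.30 ± 0.17 (limma adjusted p = 0.756 over the 22551 probe sets kept). In APPKO and N-dCKO the same probe set spanned 110.4 to 222 and 143 to 179.8, so both groups overlap WT. Neither Slc40a1 probe set passed the test in any comparison.

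Cp, the copper-carrying ferroxidase that works beside ferroportin, had the largest difference of the 9 genes in the fit by gene. Its brightest probe set read 468, 566, 426 and 473 on the WT arrays, 512, 379, 321 and 525 on the APPKO arrays, 437, 370.0, 400.3 and 584 on the APLP2KO arrays and 329.8, 339, 338 and 325 on the N-dCKO arrays. All N-dCKO arrays lie below all WT and all APLP2KO arrays, while APPKO array 3 lies below them. Groups that do not overlap occur for 7.36% of all genes in N-dCKO against WT, for 2.63% in APPKO against WT and for 4.4% in APLP2KO against WT. By the brightest probe set of each gene, Cp is the 1 member without overlap in N-dCKO against WT, and no member was without overlap in the other 2 of these comparisons. Among the dimmer probe sets, 1 of Slc40a1 and 1 of Cp did not overlap in APLP2KO against WT. The shares given are by gene. None was computed over all probe sets or for N-dCKO against APLP2KO, so these cases have no background beside them.

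From WT to N-dCKO the mean Cp signal went from 483 ± 59.0 to 333 ± 6.72, or 68.9% of WT. The log2 fold change was -0.52 ± 0.15 (SE; 95% confidence interval -0.83 to -0.21), with a limma adjusted p of 0.1005, which misses the threshold. The means of APPKO (434 ± 100) and APLP2KO (448 ± 94.7) lay between the other groups, with log2 fold changes against WT of -0.17 (-0.48 to 0.14) and -0.12 (-0.43 to 0.19). Against the single knockouts N-dCKO differed by -0.35 (-0.65 to -0.04, limma adjusted p = 0.582) and -0.40 (-0.71 to -0.09, limma adjusted p = 0.461) for APPKO and APLP2KO. The interaction, which asks whether the double loss differs from the sum of the single losses, was -0.22 ± 0.21 (limma adjusted p = 0.9997), and the F test over the 4 groups had a limma adjusted p of 0.321. With each array's median as the scale, Cp was called in N-dCKO against WT (-0.61, limma adjusted p = 0.0401), and likewise when only the WT and N-dCKO arrays were fitted (-0.52, limma adjusted p = 0.0289).

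All 8 Cp probe sets had a lower mean in N-dCKO than in WT, APPKO and APLP2KO. Probe sets of 1 gene on the same arrays are not independent of each other. The differences from WT ran from -0.67 to -0.09 on the log2 scale, and for 2 of the 8 probe sets the N-dCKO arrays did not overlap WT. How often this occurs over all probe sets was not computed. Besides the brightest, the 4 probe sets above the filter had log2 fold changes of -0.55 (limma adjusted p = 0.258 over all probe sets), -0.40, -0.40 and -0.15, the last an _x_at design whose probes can bind other transcripts. In APPKO 3 of the 8 probe sets were lower than WT and 5 higher, and in APLP2KO 5 were lower and 3 higher. All these counts, those of N-dCKO included, take in probe sets below the filter. The dimmest read 1.38 to 5.63 in WT and gave 0.78 in APPKO and 0.63 in APLP2KO. Above the filter the log2 fold changes ran from -0.29 to 0.09 in APPKO and from -0.12 to 0.02 in APLP2KO. One dim probe set read 128, 102.3, 86.4 and 99.8 in WT, 59.9, 64.6, 85.0 and 43.6 in N-dCKO and 51.8, 53.9, 72.4 and 82.0 in APLP2KO, with the smallest exact two-sided permutation p that 4 against 4 arrays allow, 0.0286, in both groups. Adjusted over the 24 tests of the 8 dim probe sets, that p was 0.343.

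The choroid plexus list was low in the same group as Cp. The summed signal of the 11 tested choroid plexus genes was 32211 to 37247 on the WT arrays, 33747 to 42009 on the APPKO arrays, 30759 to 39021 on the APLP2KO arrays and 739 to 37059 on the N-dCKO arrays, and no gene of the list stood at 0. Such a sum is weighted to the brightest genes. The median log2 fold change of the list against WT was -0.28 in APPKO and -0.53 in APLP2KO. As a mean log2 signal the list read 5.56, 6.07, 8.59 and 6.11 on N-dCKO arrays 1 to 4 and 8.42 to 9.92 on the other 12 arrays. On N-dCKO array 3 the list read 8.59, above APPKO array 1 (8.42) and below every other array of WT, APPKO and APLP2KO. Cp read 329.8, 339 and 325 on N-dCKO arrays 1, 2 and 4, and 338 on array 3. Without N-dCKO array 3 the Cp difference from WT was -0.52 (limma adjusted p = 0.171). The astrocyte list had 8 of 11 genes positive against WT in each knockout group. Its median log2 fold change was 0.06 in APPKO, 0.09 in APLP2KO and 0.13 in N-dCKO. The median of the 9 tested leptomeninges genes was 0.10, 0.17 and -0.18 in the same order, and none was called. The summed signal of the 12 microglia genes was 15850.5 to 16569.9 in WT, 13789.8 to 15408 in APPKO, 13675 to 14622 in APLP2KO and 12375 to 13293 in N-dCKO. That of the 10 oligodendrocyte genes was 87845 to 109510 in WT, 66867 to 100291 in APPKO, 88937 to 100598 in APLP2KO and 65930 to 82143 in N-dCKO. As a mean log2 signal the oligodendrocyte list was at 12.58 in WT, 12.14 in APPKO, 12.47 in APLP2KO and 12.03 in N-dCKO. The mean Cp signal was 483, 434, 448 and 333 in the same order. The part of these lists and of the Gapdh ratio in the Cp difference was not tested, nor was which cell types the Cp signal came from.

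**Figure D2:**
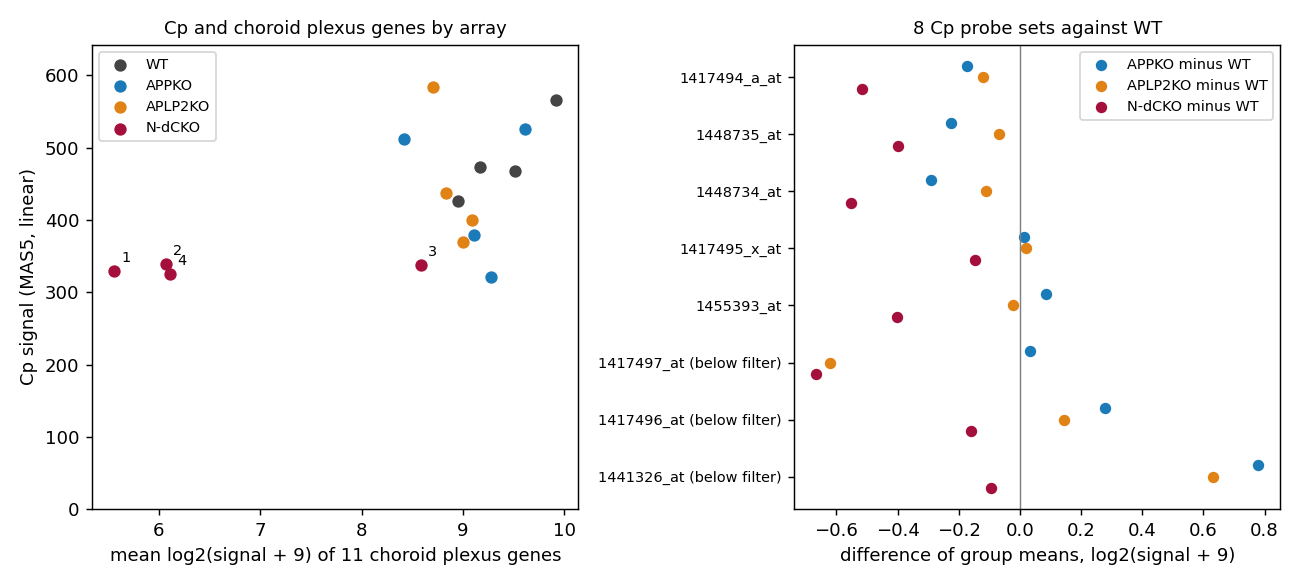
Left, Cp signal (linear) against the mean log2(signal + 9) of 11 choroid plexus genes, 1 point per array, with the N-dCKO arrays numbered. Right, the difference of each knockout group's mean from WT on the log2(signal + 9) scale for the 8 Cp probe sets, ordered by brightness: all 8 N-dCKO points lie below 0, and N-dCKO array 3 combines a choroid plexus mean of 8.59 with a Cp signal of 338.

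Atp7a, the copper pump, was the other gene with an unadjusted p below 0.05 in N-dCKO against WT. It read 437, 544, 429 and 579 in WT, 374, 461, 461 and 588 in APPKO, 389, 509, 477 and 474 in APLP2KO and 346, 364, 415 and 469 in N-dCKO. The N-dCKO arrays are shifted down but overlap WT, since N-dCKO array 4 lies above WT arrays 1 and 3. The means were ordered WT (497 ± 75.6), APPKO (471 ± 88.1), APLP2KO (462 ± 51.4) and N-dCKO (399 ± 55.0), and the first 3 differ by less than their SDs. The log2 fold change from WT to N-dCKO was -0.31 ± 0.14 (SE; 95% confidence interval -0.59 to -0.03, limma adjusted p = 0.360). The second Atp7a probe set gave -0.29 ± 0.23, with N-dCKO arrays of 151, 103, 286 and 179 around WT arrays of 153, 265, 233 and 196. Against APPKO and APLP2KO the brighter probe set differed by -0.23 and -0.21, with limma adjusted p of 0.744 and 0.718.

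**Figure D3:**
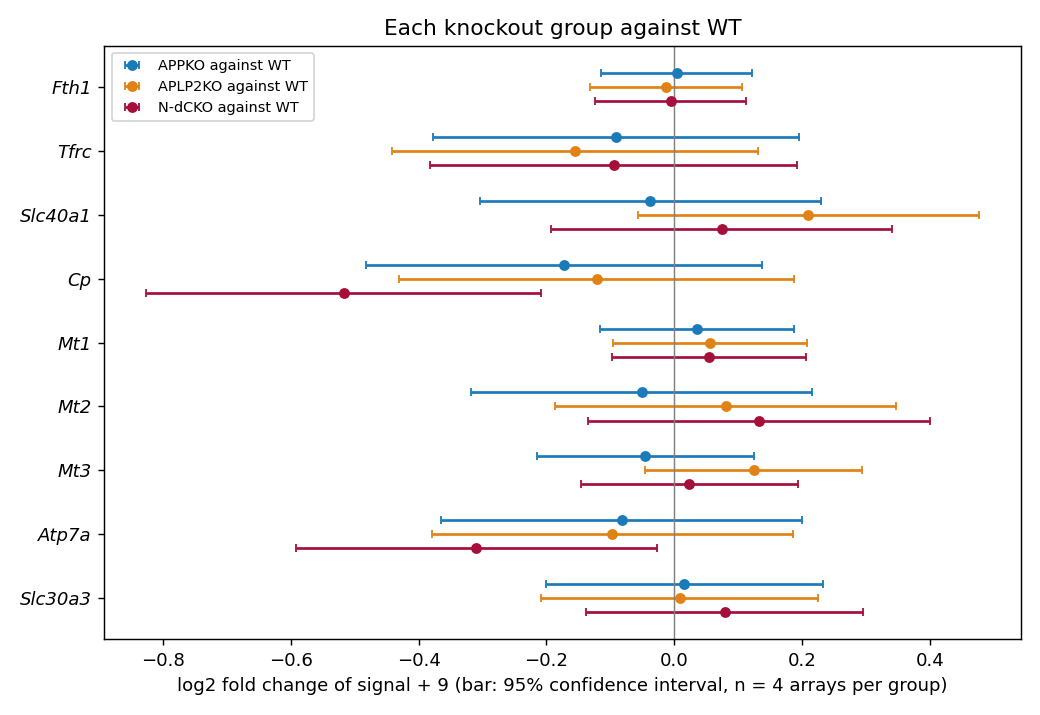
Log2 fold change of signal + 9 for the 9 measured genes in each knockout group against WT, with 95% confidence intervals (4 arrays per group). The N-dCKO intervals of Cp (-0.83 to -0.21) and Atp7a (-0.59 to -0.03) lie below 0 before adjustment over genes, and all other intervals include 0.

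The metallothioneins are small cysteine-rich proteins. Mt1 and Mt2 are induced by zinc, copper and glucocorticoids, with metal induction through the factor MTF1 at metal response elements, whereas Mt3 is known as the brain form that is not induced in the same way. Their promoters are shown as background, and no link between these sequences and the signals was tested. Each is the 250 bases before the gene's start on chromosome 8, plus strand, from RefSeq (GRCm38.p6): Mt1 at chr8:94178839-94179088, Mt2 at chr8:94172368-94172617 and Mt3 at chr8:94152357-94152606. Capitals mark matches, on either strand, to the core of the metal response element, searched as TGCACNC and TGCGCNC.
Mt1: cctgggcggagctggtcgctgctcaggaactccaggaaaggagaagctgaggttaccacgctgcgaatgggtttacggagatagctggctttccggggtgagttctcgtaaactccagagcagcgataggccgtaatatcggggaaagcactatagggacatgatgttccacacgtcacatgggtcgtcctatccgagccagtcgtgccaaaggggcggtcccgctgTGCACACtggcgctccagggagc
Mt2: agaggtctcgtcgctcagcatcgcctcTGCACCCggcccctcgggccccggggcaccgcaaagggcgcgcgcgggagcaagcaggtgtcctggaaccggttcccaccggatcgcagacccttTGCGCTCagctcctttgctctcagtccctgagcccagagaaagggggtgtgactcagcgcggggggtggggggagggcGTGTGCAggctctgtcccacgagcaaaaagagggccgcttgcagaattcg
Mt3: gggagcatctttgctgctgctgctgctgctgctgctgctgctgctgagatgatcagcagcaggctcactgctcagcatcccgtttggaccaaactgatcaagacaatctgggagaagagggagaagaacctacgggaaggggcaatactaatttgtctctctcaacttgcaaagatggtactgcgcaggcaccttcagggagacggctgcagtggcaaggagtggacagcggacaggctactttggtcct
The Mt2 window holds 3 matches, at positions -223 to -217, -128 to -122 and -50 to -44 from the start, the last on the minus strand. The Mt1 window holds 1, at -23 to -17, and the Mt3 window 0. These counts cover only the 250 bases before the RefSeq start used, and letters outside the windows were not searched. Whether transcription begins at that start was not tested, so the counts do not rank the promoters of these genes. Among all 32851 promoter windows of this length, 21.4% hold at least 1 match and 1.26% hold 3 or more. Of the members, 9 have a promoter window in the table, some more than 1. Besides Mt1 and Mt2, the Atp7a window holds 2 matches, 1 window of Tfrc holds 2 and 1 window of Slc30a3 holds 1, and the windows of Cp, Fth1 and Ftl1 hold 0. A match is a run of letters and not a tested site.

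Mt1 was read by a bright probe set of the _s_at design, whose probes match more than 1 transcript. It read 14559.5, 12958, 14376 and 13085 in WT, 14345, 14266, 14597 and 13106 in APPKO, 13941, 12768, 15736 and 14782 in APLP2KO and 12614, 13546, 15306 and 15771 in N-dCKO. The ranges of all groups overlap. Means ordered from WT (13744 ± 840) through APPKO (14078 ± 664) and APLP2KO (14307 ± 1261) to N-dCKO (14309 ± 1482) differ by less than these SDs, and the log2 fold changes against WT were 0.04, 0.06 and 0.05. The 95% confidence interval in N-dCKO was -0.10 to 0.21.

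A second, dim Mt1 probe set had a higher mean in every knockout group than in WT. Its signals were 104, 47.4, 80.5 and 64.6 in WT, 134, 119, 142 and 88.1 in APPKO, 112, 101, 138 and 99.95 in APLP2KO and 77.4, 120.3, 71.6 and 143 in N-dCKO. WT array 1 overlaps every knockout group. The log2 fold changes of 0.67 ± 0.24 in APPKO (limma adjusted p = 0.910), 0.58 ± 0.24 in APLP2KO (adjusted p = 0.607) and 0.42 ± 0.24 in N-dCKO (adjusted p = 0.531) did not pass over all probe sets. The bright probe set of the same gene had 0.04, 0.06 and 0.05 in these comparisons, so the 2 probe sets of Mt1 disagree in size. Which of them follows the Mt1 transcript more closely was not tested.

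Mt2, the metallothionein most often induced together with Mt1, read 11467, 8063, 10721 and 9650.1 in WT, 10294, 8913, 11101 and 8154 in APPKO, 9552, 8779, 12715 and 11216 in APLP2KO and 9601, 9743, 11051 and 13369.8 in N-dCKO. The ranges overlap in all groups, and N-dCKO array 4 is the highest of the 16. Log2 fold changes were -0.05 in APPKO, 0.08 in APLP2KO and 0.13 in N-dCKO (95% confidence interval -0.13 to 0.40, limma adjusted p = 0.746). Group means ran from 9615 ± 1328 in APPKO, through 9975 ± 1477 in WT and 10566 ± 1757 in APLP2KO, to 10941 ± 1746 in N-dCKO, with differences smaller than these SDs.

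Mt3, first known as growth inhibitory factor of brain, read 6918, 6792, 6939 and 7464 in WT, 5721, 7788, 6640.5 and 7251 in APPKO, 7567, 7482, 8675 and 6999 in APLP2KO and 6861, 7506, 6568 and 7679 in N-dCKO. In APLP2KO 3 of the 4 arrays lie above all WT arrays and 1 lies within the WT range. That group's log2 fold change was 0.12 ± 0.08 (SE; 95% confidence interval -0.05 to 0.29, limma adjusted p = 0.803), against -0.05 in APPKO and 0.02 in N-dCKO. The means were 7681 ± 708 in APLP2KO, 7153 ± 526 in N-dCKO, 7028 ± 298 in WT and 6850.2 ± 887 in APPKO.

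Mt1 and Mt2 varied together from array to array within the genotypes. Over the 16 arrays the Pearson correlation of their log2 signals was 0.860 and the Spearman correlation 0.868, each with a permutation p of 6e-05 (100000 resamples, two-sided) and an adjusted p of 0.00216 over the 36 pairs of members. The permutations shuffled all 16 arrays freely, without regard to genotype or array number. The Pearson correlation was 0.897 without the 2 arrays farthest from the median of Mt1, 0.888 with group means removed, and positive within each of the 4 groups. No p was computed with group means removed. No other pair of members had an adjusted p below 0.05. Mt2 and Slc30a3 came next with a Pearson correlation of 0.628 (permutation p = 0.00777, adjusted p = 0.140), and Mt1 and Mt3 had 0.118 (permutation p = 0.670). The arrays share their scaling, and whether the Mt1 probes also bind Mt2 transcripts was not tested.

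**Figure D4:**
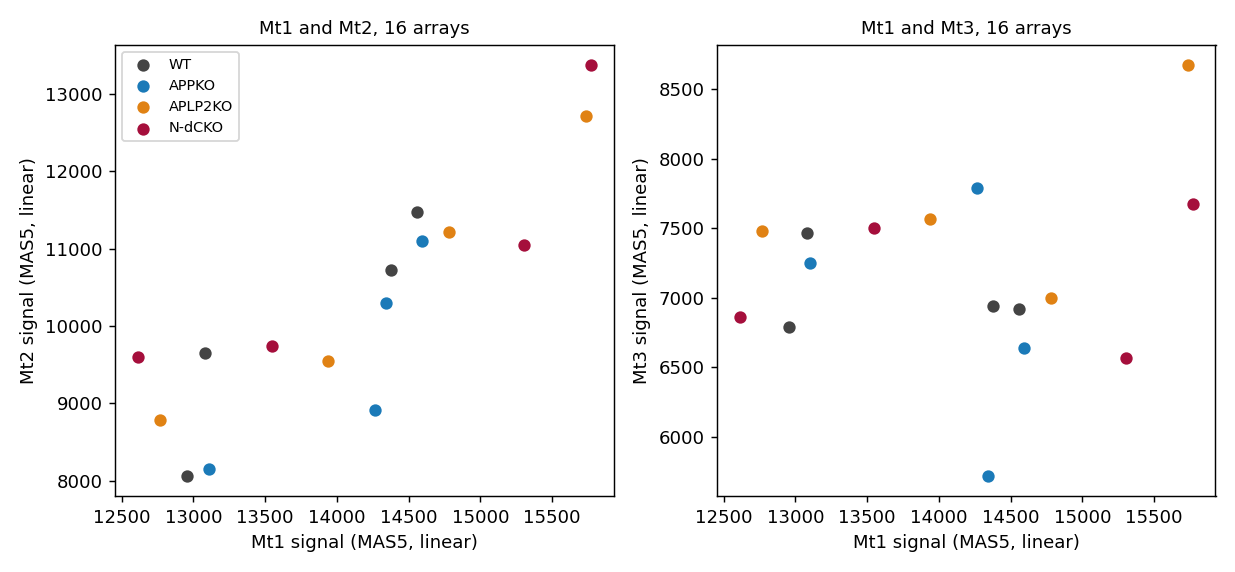
Signal of Mt2 (left) and Mt3 (right) against that of Mt1, on linear axes that do not start at 0, with 1 point per array coloured by genotype group. Mt1 and Mt2 vary together in all 4 groups (Pearson correlation of log2 signals 0.860), while Mt1 and Mt3 have a correlation of 0.118.

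Slc30a3, the zinc transporter of synaptic vesicles, read 879.8, 775, 755 and 844 in WT, 904, 829, 972 and 623 in APPKO, 773, 805, 918 and 779 in APLP2KO and 829, 850.4, 868 and 886 in N-dCKO. The 4 N-dCKO arrays lie close together near the upper end of the WT range, with array 4 just above it, while the APPKO arrays spread most. Means were 814 ± 58.3 in WT, 832 ± 151 in APPKO, 819 ± 67.8 in APLP2KO and 858 ± 24.3 in N-dCKO. Against WT it differed on the log2 scale by 0.02 in APPKO (95% confidence interval -0.20 to 0.23), 0.01 in APLP2KO (-0.21 to 0.22) and 0.08 in N-dCKO (-0.14 to 0.30), with limma adjusted p of 0.9997, 0.992 and 0.831.

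The wider pathways gave the same count. Of 84 further genes listed for iron, copper and zinc handling, 66 were tested, and 0 were called higher or lower in any of the 6 comparisons. At an unadjusted limma p below 0.05 there were 1 in APPKO, 4 in APLP2KO and 7 in N-dCKO against WT, beside 5.18%, 7.44% and 11.98% of all genes. The median log2 fold change of the 66 genes was 0.00315, -0.02 and -0.03 in these comparisons.

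By role, 10 genes of iron uptake and storage had a median log2 fold change of 0.04 in N-dCKO against WT, 7 of iron export, sensing and regulation 0.03, and 12 of mitochondrial iron, iron-sulfur clusters and haem -0.08. For copper, 11 genes of uptake, chaperones and export had -0.04 and 8 copper enzymes and binding proteins -0.05. The 7 tested zinc exporters had 0.00 and the 9 tested zinc importers -0.07, with 7 of the 9 negative. Mtf1, the metal-sensing factor of the metallothionein genes, had -0.08 ± 0.08 (limma adjusted p = 0.765).

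Hfe, a protein that pairs with the transferrin receptor and whose loss causes iron overload, had the smallest p of these lists. Its signal was 184 to 215 on the WT arrays and 98.7 to 186 on the N-dCKO arrays, which just overlap, with a log2 fold change of -0.55 ± 0.16 (SE; limma adjusted p = 0.114). Of the copper genes, Slc31a1, the copper importer CTR1, had -0.34 ± 0.14 (limma adjusted p = 0.323). Moxd1, a monooxygenase of the copper-dependent kind, had -0.18 ± 0.08 (limma adjusted p = 0.393), beside -0.23 in APPKO and -0.02 in APLP2KO against WT. Cybrd1, a ferric reductase, had 0.35 ± 0.15 (limma adjusted p = 0.334) and Nfs1, which supplies sulfur for iron-sulfur clusters, had -0.14 ± 0.06 (limma adjusted p = 0.375). Among zinc transporters, Slc30a10 had 0.37 ± 0.15 (limma adjusted p = 0.319) and Slc39a1 had -0.14 ± 0.07 (limma adjusted p = 0.417).

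Probe set by probe set, 17 of the 25 passed the signal filter and 8 did not. In the fit of the 22551 probe sets kept, 0 of the 17 were called in any comparison, and their smallest limma adjusted p was 0.132, for Cp in N-dCKO against WT. The 8 dim probe sets, 5 of Tfrc and 3 of Cp, had signals between 1.38 and 128. Over all genes the SE of a comparison of 2 groups had a median of 0.098 on the log2 scale, and the widest 95% confidence interval of a member, that of Cp, spanned 0.62.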

How the data were processed

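The authors deposited intensity values on a linear scale made with MAS5, per the submitters' processing notes (version not given in the sources used here), and the 2% trimmed mean was 500 on all 16 arrays. No normalization was added. Of the 45101 probe sets, 34958 were paired with 1 symbol, and 34754 of these were found in a list of RefSeq genes of GRCm38.p6, for names only.

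The 22551 probe sets at or above the median mean signal (88.2) were kept, and the brightest per gene was tested, leaving out control probe sets, with limma 3.58.1 (R 4.3.3) on log2(signal + 9), which understates changes of dim genes. The fit had 1 mean per group, a variance trend and 19.4 moderated degrees of freedom, with two-sided p, and was tested on simulated data. The number of arrays limits the precision. Values after ± are SD for signals and SE for log2 fold changes.

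Named genes are all members, the 2 genes most correlated with each over the arrays, App and Aplp2, and, of each pathway list, genes called and the gene with the smallest p in N-dCKO against WT. The members and lists were chosen with earlier results of these data known. Alternatives were median centring or quantile normalization, pseudocounts of 0 and 36, other filters, averaging a gene's probe sets, a fit without the trend, array weights, a replicate block, a fit of only the 2 groups at issue and leaving out each array. Same-numbered arrays of WT and APPKO, by the numbers in the titles, deviated from their group means together (correlations of 0.192 to 0.301), so the numbers pair these 2 groups. The check asked that every same-number correlation of 2 groups lie above 0.1. APLP2KO and N-dCKO missed it with 0.082 to 0.208. The remaining pairs of groups missed it too.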

Additional observations from a re-analysis of the deposited data

Results flagged for a closer look

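Within each group of 4 arrays, a signal was singled out where the gap from the highest or lowest array to the nearest other exceeded Dixon's 95% critical share of the group's range. Of 68 such groups, 17 probe sets by 4 genotypes, 3 met this, and chance gives about 1 in 20. Fth1 read 28594 on N-dCKO array 3, where the next array was at 24902. The _x_at probe set of Cp read 265 on WT array 4, with the next at 197, and 213 on N-dCKO array 4, with the next at 182. The brightest Cp probe set, on which the Cp comparison rests, had no such array in any group.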

How the results depend on the processing

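Members called in N-dCKO against WT numbered 1 instead of 0 in 2 of 27 alternatives, each time Cp: with median centring, which moved the median log2 fold change of all genes by -0.09, and with only the groups compared. Over 26 alternatives the Cp log2 fold change there ranged from -0.61 to -0.40 and its limma adjusted p from 0.0289 to 0.301. With each of the 16 arrays left out in turn the count stayed at 0, with an adjusted p of 0.0715 to 0.301 for Cp. The smallest adjusted p of Atp7a was 0.128, with the replicate block. In every other comparison and in the fit by probe set the count was 0 under all alternatives run. The replicate block changed no call of a member (smallest adjusted p 0.0651, N-dCKO against WT), and with only WT and APPKO and the block, added after seeing the data, 6 genes were called, 0 of them members. All genes called in N-dCKO against WT numbered 110, and 198 with the block. With 1 array left out they ranged from 45 (without WT array 2) to 154 there, from 1 to 16 (without APPKO array 2) in APPKO and from 9 (without WT array 1, 2 or 3) to 19 in APLP2KO against WT, from 19 (without APPKO array 4) to 56 in N-dCKO against APPKO, from 1 to 35 (without N-dCKO array 3) in N-dCKO against APLP2KO, from 0 to 11 (the same array) for the interaction and from 39 (without N-dCKO array 1) to 131 (without APPKO array 2) in the F test. At the 75th percentile filter Cp and Atp7a were not among the 7025 genes tested.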

Other observations

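For each member the genes with the most similar pattern over the 16 arrays were listed, as a description of arrays that share their scaling. Fth1 was closest to Actb, a cytoskeletal actin (Pearson correlation 0.88), and Cox6a1, a subunit of cytochrome oxidase (0.86). Tfrc was closest to Sar1a (0.84) and Hnmt (0.83), and Slc40a1 to Pkib (0.84) and Tmem14c (0.83). Cp was closest to Kat2b, a histone acetyltransferase (0.85), and Lyz1, a lysozyme (0.82). Atp7a was closest to Rps27l (0.83) and Fxyd1 (0.82), Mt3 to Lyar (0.84) and Zscan21 (0.83), and Slc30a3 to Smg6 (0.77) and Dipk1b (0.76). Mt1 had Mthfd2 (0.84) beside Mt2, and Mt2 had Paqr8 (0.87) beside Mt1.

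Glucocorticoids also induce Mt1 and Mt2, and a list of 12 genes of that response had 11 tested. Zbtb16, a transcription factor known to respond to glucocorticoids, was called higher in N-dCKO than in WT, with a log2 fold change of 0.47 ± 0.11 (SE, limma adjusted p = 0.0411). Its signal was 854 to 1086 on the WT arrays and 1156 to 1412 on the N-dCKO arrays. The other 10 tested genes were not called, in a comparison where 0.943% of all genes were. Of the 11, 7 were positive and 4 negative, the lowest at -0.34, with a median of 0.06. Mt1 and Mt2 had log2 fold changes of 0.05 and 0.13 in the same comparison.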
